A study of Mus musculus with 441 samples.

Results

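The 44 genes described here encode actin, the proteins that assemble, cap and sever its filaments, the small GTPase switches that steer them, and the myosin and linker proteins that work on them. They were taken from a list of actin cytoskeleton and motility genes, and all 44 were among the 13561 genes of the deposited expression table. The study profiled single CD4 T cells from mouse pancreatic islets, picked by FACS with a tetramer, which is a cluster of MHC molecules loaded with peptide that sticks to T cells whose receptor fits it. The HIP tetramer gave 184 of the 441 cells and the Ins tetramer gave 257. The labels spell out neither abbreviation and give no strain, age or animal, so each sort counts as 1 sample and no replicate error is available. The authors divided the cells into 44 dividing cells (9 HIP, 35 Ins), 21 cells of cluster 4 annotated as B cells (Ins), 118 regulatory T cells or Tregs (3 HIP, 115 Ins), 86 cells of cluster 2 (61 HIP, 25 Ins), which carry an activated CD4 T cell annotation, and 172 T follicular helper cells (111 HIP, 61 Ins). The sorts allow the question of whether T cells that bind one or the other tetramer are in different states.

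Actin monomers join into filaments that push a cell's leading edge forward and shape the contact of a T cell with the cell that presents antigen to it. Profilin feeds monomers to growing filament ends and the beta-thymosins hold them in reserve, the Arp2/3 complex starts branches, capping protein stops growth, and cofilin cuts old filaments. Small GTPases such as Rac and Cdc42 switch this machinery on at the membrane, and myosin II pulls on the filaments.

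Markers were checked against the class names. Foxp3, the Treg lineage factor, was detected in 81.7% of Ins Tregs, and Cxcr5, the follicular homing receptor, in 40.5% of HIP and 45.9% of Ins follicular helper cells. Among dividing cells, the proliferation marker Mki67 was detected in 88.9% (HIP) and 65.7% (Ins), and Foxp3 in 77.1% (Ins). Cluster 4 had the plasma cell marker Sdc1 in 95.2% of cells and the T cell marker Cd3e in 4.76%. The B cell markers Cd79a and Ms4a1 were detected in 90.5% and 33.3% of its cells. The plain name B cell leaves out the 4 antibody-secreting cell markers among its 10 leading genes. Fcer1g, also among these 10, is on the myeloid list. The 10 leading genes of cluster 2 included type 1 effector markers, a follicular helper marker and an antibody-secreting cell marker. Cxcr5 was detected in only 3.28% (HIP) and 8% (Ins) of cluster 2 cells. Cluster 4 and cluster 2 are called by their numbers. None of the 44 genes was among the 10 leading genes of any class. The classes were nevertheless cut from the same expression values, so differences between classes are descriptions and no test was made.

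Values are in TPM, a length-corrected measure of transcript share that sums to 1000000 in each cell, and a gene counts as detected at 1 TPM or more. TPM keeps no read depth, so depth is unknown. The number of genes detected stands in for it, with medians of 3992 (HIP) and 3610 (Ins) in dividing cells, 2477 in cluster 4, 2017 in Ins Tregs, 2075 (HIP) and 1862 (Ins) in cluster 2, and 1951 (HIP) and 1963 (Ins) in follicular helper cells. In 4 follicular helper cells, the 44 genes together held less than 1% of TPM. In the 2 HIP cells they held 0.308% and 0%, and in the 2 Ins cells 0.274% and 0.271%. The ribosomal RNA precursor Rn45s took 18.6% and 21.9% of TPM in the HIP pair, against 19.0% and 21.8% in the Ins pair, and from 0 to 5 of 8 T cell markers were detected in these cells. One HIP cell had none of the 44 genes and was the only cell with Actb at 0. Without these 4 cells, Actb averaged 9511 TPM in HIP and 10299 TPM in Ins follicular helper cells, against 9360.15 and 9972 TPM with them, and the other follicular helper levels checked (10 further genes) moved as little. The summed shares, the counts of genes past a threshold and the median correlations of this class are given with and without them, and some named values are given both ways.

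The promoters of 5 genes are shown, Actg1 and Vcl because they hold a CArG box, and Tmsb10, Tmsb4x and Evl because their levels are described by class below. The CArG box is the motif of the factor SRF, whose partner MRTF is held by actin monomers, and actin genes are classical SRF targets. RefSeq promoters (GRCm38.p6) were found for 38 of the 44 genes, 49 promoters in all, each running from 250 bases before to 50 after the start. Only the 250 bases before the start were searched for motifs, in these and in all other promoters. A CArG box, searched on both strands, was present in 4 of these 49 promoters (8.16%), those of Actg1, Arpc4, Myl6 and Vcl, against 1.47% of 32851 promoters of the same length. Actb was not among the 38 genes, so its promoter was not searched. The GC-rich letters GGGCGG, searched on both strands, were present in 63.3% of the 49 and 32.7% of all promoters. The letters CCAAT were present in 22.4% and 33.8%, and TATAAA in 6.12% and 12.4%. A match is a description of the sequence and not a bound site. The upstream stretches of 5 promoters follow, 5′ to 3′ on the gene's strand and ending just before the first annotated transcript base. Capitals mark CArG boxes and GGGCGG or its complement CCGCCC. The stretches are Actg1 at chr11:120348543-120348745 (minus strand), Vcl at chr14:20929148-20929397 (plus), Tmsb10 at chr6:72958749-72958998 (minus), Tmsb4x at chrX:167209316-167209468 (minus) and Evl at chr12:108554470-108554719 (plus).
Actg1: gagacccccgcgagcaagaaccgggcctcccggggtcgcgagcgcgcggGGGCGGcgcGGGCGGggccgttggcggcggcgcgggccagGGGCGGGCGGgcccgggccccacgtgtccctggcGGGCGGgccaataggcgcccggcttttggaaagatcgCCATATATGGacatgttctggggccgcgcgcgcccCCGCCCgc
Vcl: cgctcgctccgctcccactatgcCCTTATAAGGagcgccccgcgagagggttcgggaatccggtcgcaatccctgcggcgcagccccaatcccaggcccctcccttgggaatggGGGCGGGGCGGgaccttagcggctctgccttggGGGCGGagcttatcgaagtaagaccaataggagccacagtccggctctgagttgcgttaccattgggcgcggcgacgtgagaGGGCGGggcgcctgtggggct
Tmsb10: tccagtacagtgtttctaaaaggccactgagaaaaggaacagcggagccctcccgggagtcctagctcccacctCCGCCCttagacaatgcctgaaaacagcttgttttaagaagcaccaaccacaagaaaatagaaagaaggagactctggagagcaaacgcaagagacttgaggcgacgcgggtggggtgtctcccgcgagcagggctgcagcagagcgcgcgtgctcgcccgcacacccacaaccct
Tmsb4x: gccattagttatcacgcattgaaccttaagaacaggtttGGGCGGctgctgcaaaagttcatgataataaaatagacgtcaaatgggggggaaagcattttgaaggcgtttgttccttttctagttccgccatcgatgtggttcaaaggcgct
Evl: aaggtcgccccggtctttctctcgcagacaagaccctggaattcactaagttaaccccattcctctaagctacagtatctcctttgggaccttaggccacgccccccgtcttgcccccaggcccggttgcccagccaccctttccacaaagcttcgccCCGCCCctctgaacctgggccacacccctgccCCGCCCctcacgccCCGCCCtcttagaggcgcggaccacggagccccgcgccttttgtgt
The CArG box of Actg1 began 43 bases before the end of its stretch and that of Vcl 227 bases before. The stretches of Tmsb10, Tmsb4x and Evl held none. GGGCGG or its complement was present 1 time in Tmsb10, 1 time in Tmsb4x and 3 times in Evl.

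Together the 44 genes held a smaller share of the transcripts in cluster 4 than in the T cell classes. Their summed share of TPM averaged 6.24% ± 1.12 in HIP and 5.98% ± 1.52 in Ins dividing cells, 1.25% ± 0.456 in cluster 4, and 5.98% ± 1.60 in Ins Tregs (SD over cells, which is not replicate error). It averaged 5.78% ± 1.44 in HIP and 5.18% ± 1.13 in Ins cells of cluster 2, and 4.90% ± 1.49 in HIP and 4.83% ± 1.63 in Ins follicular helper cells. Without the 4 cells described above, the follicular helper means were 4.99% in HIP and 4.98% in Ins. The 3 HIP Tregs, too few for a comparison, held 4.38% to 5.18%. Single cells of the T cell classes overlapped. The means of HIP dividing and HIP follicular helper cells lay further apart than the SD of the dividing cells (1.12). The SD of the follicular helper cells (1.49) was larger than that gap. The cluster 4 cells lay between 0.658% and 2.99%, below the median of each T cell class. In blocks of 96 consecutive cell numbers, each of which held cells of 1 sort, the mean share ranged from 5.87% to 6.25% in Ins Tregs and from 4.64% to 5.05% in Ins follicular helper cells, and these ranges did not overlap.

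**Figure D1:**
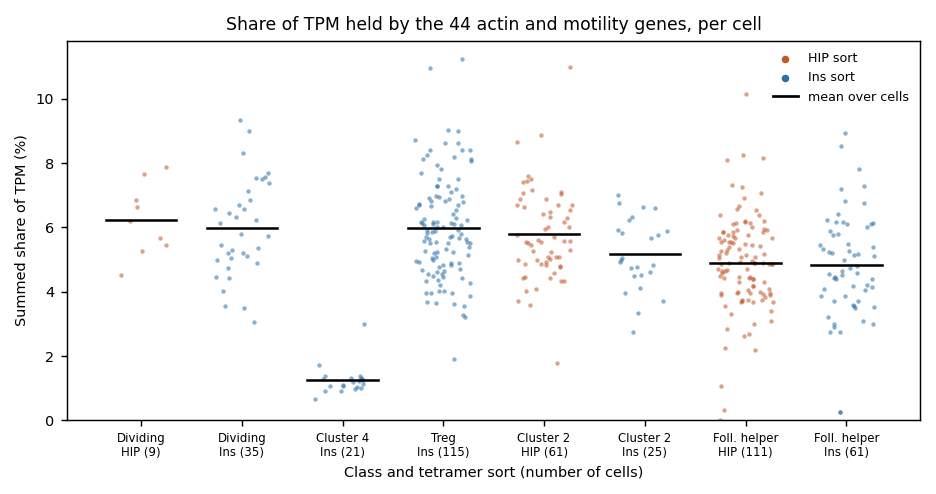
Summed share of TPM held by the 44 genes (vertical axis, percent) in each cell, by class and tetramer sort, with black lines at the mean over cells. Cluster 4 averages 1.25%, while the T cell classes average between 4.83% and 6.24% and overlap widely, and 4 follicular helper cells lie below 1%.

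Over the 420 cells of the 4 T cell classes, the cytoplasmic actin gene Actb had the highest level, 11455 ± 4938 TPM (SD over cells), which was 21.0% of the summed level of the 44 genes. Next came Tmsb4x (beta-thymosin 4) at 5739 ± 3097 TPM and Pfn1 (profilin) at 5255 ± 2877 TPM. Coro1a (coronin 1A, which binds filaments and is needed for T cell survival), Myl6 (a myosin light chain), Actg1 (the other cytoplasmic actin), Arhgdib (a GTPase inhibitor) and Cfl1 (cofilin) lay between 3308 and 2735 TPM. Each neighbour in this order differed from the next by less than the SD over cells, apart from Actb. In all, 14 genes averaged over 1000 TPM, 19 between 100 and 1000 TPM and 11 up to 100 TPM. Of the 44 genes, 32 were detected in at least 50% of the T cells and 12 in at least 90%, and 2 were detected in under 10%. Those 2 were Vcl (vinculin, a linker of adhesion sites) in 6.67% and Actn1 (an alpha-actinin) in 2.86% of cells. Actb varied least for its level, with a coefficient of variation of 43.1%, and Tmsb10 (beta-thymosin 10) had 112%, the highest among the 14 genes over 1000 TPM.

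**Figure D2:**
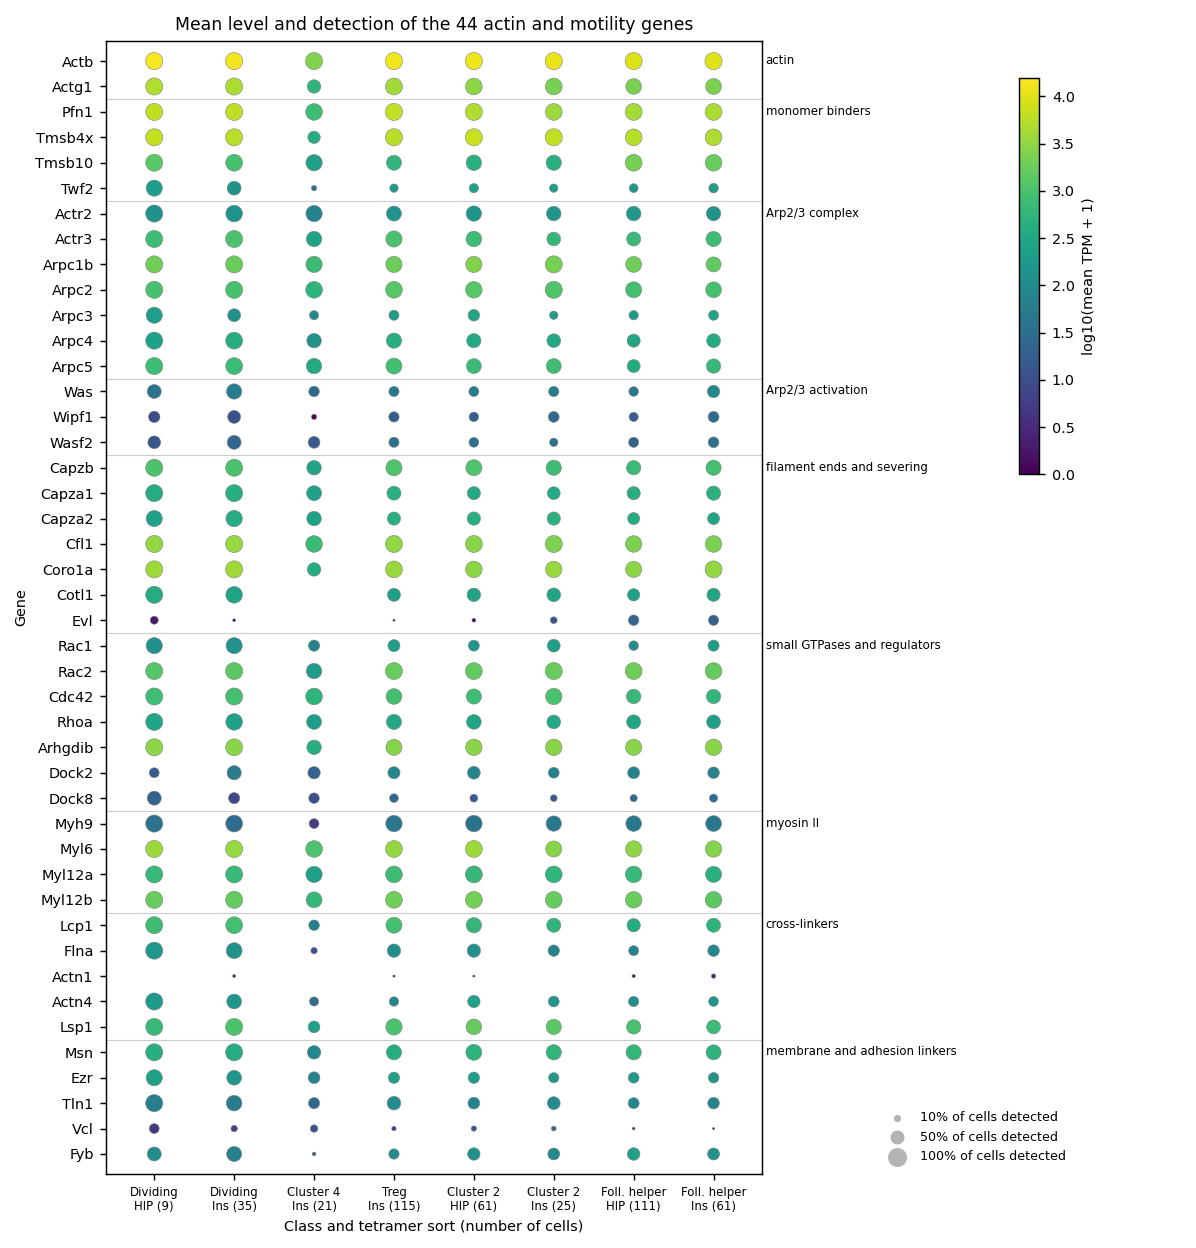
Mean level (colour, log10 of mean TPM + 1) and share of cells with detection (dot area) of the 44 genes in rows, grouped by role, for each class and tetramer sort in columns. Actb is brightest in each column, cluster 4 is dimmer than the T cell classes for most genes, and Evl has its largest dots in the follicular helper columns.

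Actin itself was higher in dividing cells and Tregs than in follicular helper cells. Actb averaged 14221 TPM in HIP and 13459 TPM in Ins dividing cells, 2473 TPM in cluster 4, 13035 TPM in Ins Tregs, 12270.4 TPM in HIP and 11353 TPM in Ins cells of cluster 2, and 9360.15 TPM in HIP and 9972 TPM in Ins follicular helper cells. Actg1 averaged 5052 and 4565 TPM in HIP and Ins dividing cells, 548 TPM in cluster 4 and 4064 TPM in Ins Tregs. It averaged 2906 and 2106 TPM in HIP and Ins cells of cluster 2, and 2302 and 2225 TPM in HIP and Ins follicular helper cells. Actg1 thus made up 26.2% (HIP) and 25.3% (Ins) of the 2 actins in dividing cells and 23.8% in Ins Tregs, but 19.7% (HIP) and 18.2% (Ins) in follicular helper cells. Actg1 exceeded Actb in 1 HIP cell of cluster 2 and 2 HIP follicular helper cells, and in no cell of the other groups. Actg1 shares 45.6% of the 50-base windows of its transcripts with other genes, mainly the gene model Gm12715. Actb shares 12.2% of its windows, mainly with Lrrc58 (8.24%), and 1.38% with Actg1. The levels of Actg1 and, to a smaller extent, Actb are therefore uncertain, as is their split. Among all members, 13 share 5% or more of their windows.

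The 2 beta-thymosins, small proteins that each hold 1 actin monomer, had different patterns across the T cell classes. Tmsb10 averaged 560 ± 534 TPM in Ins Tregs, with a lowest cell of 0, a median of 474.2 and a highest of 2644 TPM. In cluster 2 it averaged 468.4 ± 477.3 TPM in HIP and 459.8 ± 362 TPM in Ins cells, with medians of 329 and 400.2 TPM. Follicular helper cells had 2115 ± 1757 TPM in HIP (lowest 0, median 1686, highest 11750.0) and 1654 ± 1190 TPM in Ins (lowest 0, median 1397, highest 4596). Both follicular helper medians lay above the medians of Tregs and cluster 2, though single cells overlapped. Dividing cells lay between (1338 TPM for HIP, 966 TPM for Ins), and cluster 4 had 240.2 TPM. Tmsb4x averaged 5760.35 ± 3489 TPM in Ins Tregs, 6997 ± 2891 TPM in HIP and 6514 ± 2615 TPM in Ins cells of cluster 2, and 5370.4 ± 3075 TPM in HIP and 4760.1 ± 2698 TPM in Ins follicular helper cells. Its T cell classes overlapped almost entirely, and cluster 4 had 379 TPM.

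The make-up of the pair therefore differed between classes. Tmsb10 was 8.86% of the summed mean level of both thymosins in Ins Tregs, 6.27% in HIP and 6.59% in Ins cells of cluster 2, and 28.3% in HIP and 25.8% in Ins follicular helper cells. It was above Tmsb4x in 1 Ins Treg (0.870% of cells) and in no cluster 2 cell, against 12 HIP follicular helper cells (10.8%) and 6 Ins follicular helper cells (9.84%). Without the 4 low cells, the Tmsb10 share of the pair was 28.3% in HIP and 25.5% in Ins follicular helper cells. In dividing cells it was 16.6% (HIP) and 14.7% (Ins) of the pair, and in cluster 4, where Tmsb4x was low, 38.8%. Tmsb10 shares 27.0% of its transcript windows with other genes, mainly Gm9844, which was not analysed here, and Tmsb4x shares none. The remaining monomer binders were profilin, with 6625 TPM in Ins Tregs, 5053 TPM (HIP) and 3649 TPM (Ins) in cluster 2 and 4236 TPM (HIP) and 4720 TPM (Ins) in follicular helper cells, and twinfilin 2 (Twf2), which averaged 225 TPM or less in each group.

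**Figure D3:**
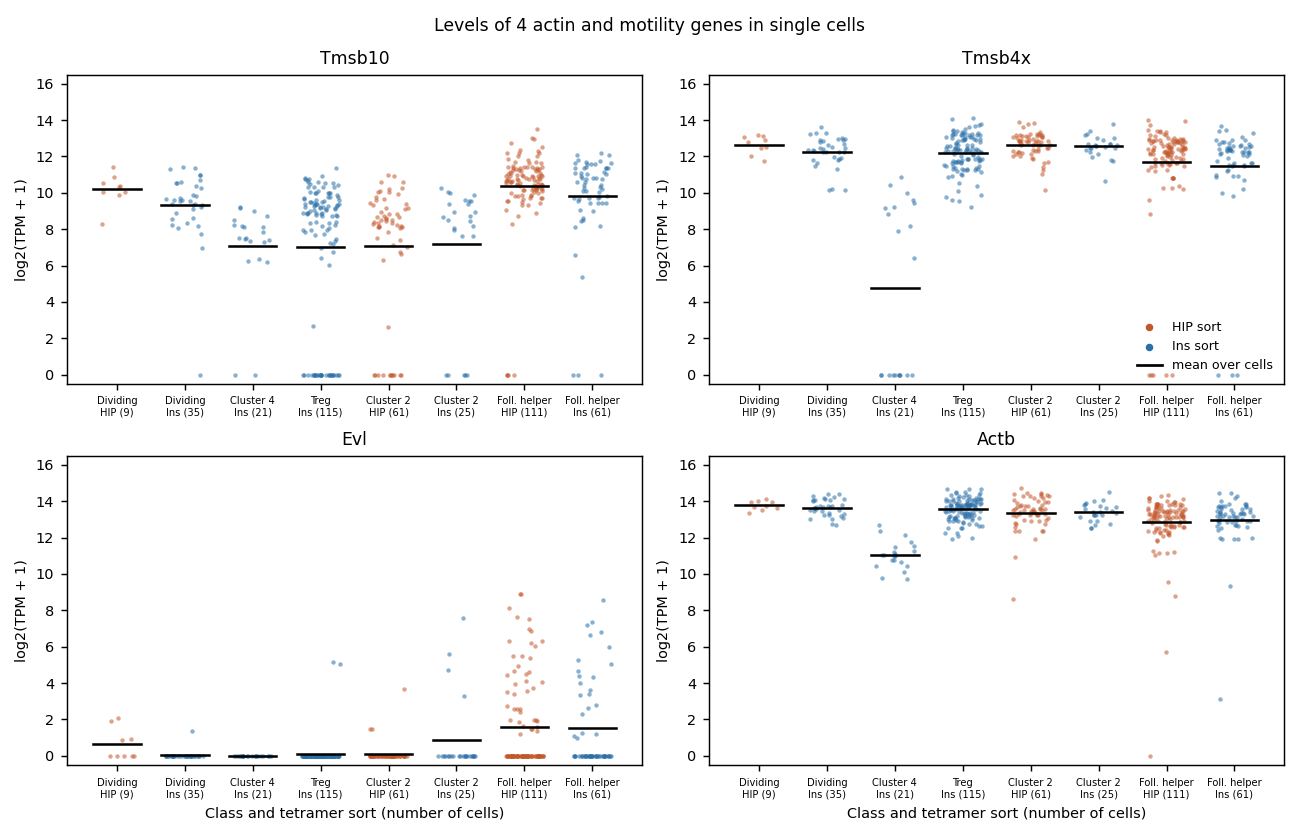
Level of Tmsb10, Tmsb4x, Evl and Actb in each cell (vertical axis, log2 of TPM + 1) by class and tetramer sort, with black lines at the mean over cells. Tmsb10 lies higher in follicular helper cells (means 2115 and 1654 TPM in HIP and Ins) than in Tregs (560 TPM) and cluster 2 (468.4 and 459.8 TPM), Evl is detected mostly in follicular helper cells, and Tmsb4x is low in cluster 4.

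The Arp2/3 complex has 7 subunits in a fixed ratio, but their transcripts spanned more than 10-fold. Over T cells, Arpc1b was highest at 1879 TPM, followed by Arpc2 at 1065 TPM, Actr3 at 811 TPM, Arpc5 at 661 TPM and Arpc4 at 364 TPM. Arpc3, at 223 TPM, and Actr2, at 153 TPM, were lowest. Arpc3 and Actr2 reached their low means in different ways, since Arpc3 was detected in 37.4% of T cells and Actr2 in 77.1%. Arpc1b averaged 2523 TPM in HIP and 2090 TPM in Ins cells of cluster 2, and 1844 TPM in HIP and 1506 TPM in Ins follicular helper cells. Arpc5 averaged 853 TPM in Ins Tregs, against 365 TPM in HIP and 675 TPM in Ins follicular helper cells. The activators of the complex had low levels: Was (the Wiskott-Aldrich syndrome protein) averaged 56.7 TPM, Wasf2 (WAVE2) 29.1 TPM and Wipf1 (which binds and stabilises Was) 17.2 TPM over T cells. Actr3 shares 44.5% of its windows with other genes, mainly Gm8822, and its level is uncertain.

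Among the proteins that cap, sever or extend filaments, Cfl1 and Coro1a were abundant in each T cell class, and Evl, an Ena/VASP protein that speeds filament growth, was detected unevenly. Evl was detected in 37.8% of HIP follicular helper cells (exact 95% interval 28.8% to 47.5%) and 36.1% of Ins follicular helper cells (24.2% to 49.4%). It was detected in 1.74% of Ins Tregs (0.211% to 6.14%), 4.92% of HIP and 16% of Ins cells of cluster 2, and 22.2% (2 of 9) of HIP and 2.86% of Ins dividing cells. Its mean level was 0.581 TPM in Ins Tregs and 0.251 TPM in HIP cells of cluster 2, against 22.9 TPM in HIP and 19.1 TPM in Ins follicular helper cells, whose highest cells reached 481 TPM and 382 TPM. Without the 4 low cells, the shares of follicular helper cells with detection were 38.5% (HIP) and 37.3% (Ins). Intervals are not given for cluster 2 and dividing cells. The shares in Ins cells of cluster 2 (25 cells) and HIP dividing cells (9) rest on few cells and are loosely fixed. Evl was detected in 0 of 21 cluster 4 cells, for which the limit of 3 cells in 21 is 14.3% and the exact 95% interval reaches 16.1%, and the same held for Cotl1 (coactosin-like protein, a filament binder). Cotl1 was detected in 51.4% to 100% of the cells of each T cell group. Intervals and limits cover counting error only.

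Capzb, the beta subunit of capping protein, averaged 1124 TPM in Ins Tregs, 1105 TPM in HIP and 781 TPM in Ins cells of cluster 2, and 729 TPM in HIP and 895 TPM in Ins follicular helper cells. Its 2 alternative alpha subunits, Capza1 and Capza2, were present at like levels, with Capza2 making up from 37.6% of the pair in Ins follicular helper cells to 59.3% in HIP cells of cluster 2. Capza1 shares 72.7% of its windows with other genes, mainly Gm3608, so this split is uncertain.

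Rac2, the Rac GTPase of blood cells, far exceeded the widely expressed Rac1. Rac2 averaged 1668 TPM in Ins Tregs, 1469 TPM in HIP and 1684 TPM in Ins cells of cluster 2, and 1846 TPM in HIP and 1607 TPM in Ins follicular helper cells, whereas Rac1 lay between 107 and 226 TPM in these groups. Rac1 made up 5.46% (HIP follicular helper) to 11.9% (Ins cluster 2) of the pair among T cells (11.6% in Ins follicular helper cells, or 9.77% without the 4 low cells) and 27.8% in cluster 4, where Rac2 averaged 191 TPM. Arhgdib, which keeps small GTPases in the cytosol, averaged between 2673 and 3013 TPM in the T cell groups and 436 TPM in cluster 4. Cdc42 averaged 895 TPM in Ins Tregs, 752 TPM (HIP) and 1001 TPM (Ins) in cluster 2, and 649 TPM (HIP) and 557 TPM (Ins) in follicular helper cells. The exchange factors Dock2 (for Rac) and Dock8 (for Cdc42) averaged 74.5 and 21.9 TPM over T cells.

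The non-muscle myosin II genes were dominated by light chains. Over T cells, the essential light chain Myl6 averaged 3210.1 TPM, the regulatory light chains Myl12b and Myl12a 1739 and 647 TPM, and the heavy chain Myh9 45.0 TPM. Myh9 was nevertheless detected in 88.8% of T cells, more often than genes at several times its level, such as Capza2 (394 TPM, 58.8%). Myl12a and Myl12b share windows with each other, 19.1% and 22.4% counting all partners, and their split is uncertain. Among cross-linkers, the alpha-actinin Actn4 averaged 147 TPM and its relative Actn1 0.400 TPM. Lcp1 (L-plastin, a bundling protein of leukocytes) and Lsp1 (a leukocyte filament binder) averaged 636 and 1056 TPM. Lcp1 was 885 TPM in Ins Tregs, 603 TPM (HIP) and 563 TPM (Ins) in cluster 2 and 388 TPM (HIP) and 519.9 TPM (Ins) in follicular helper cells. Lsp1 was highest in cluster 2, at 1600 TPM in HIP and 1314 TPM in Ins cells. Of the membrane linkers, Msn (moesin, 490.2 TPM) exceeded its relative Ezr (ezrin, 197 TPM), and Fyb (the integrin adaptor ADAP) averaged 96.0 TPM in Ins Tregs, against 222 TPM in HIP and 141 TPM in Ins follicular helper cells.

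The next comparisons use the difference of mean log2(TPM + 1), with a gene past the threshold at 1 log2 unit, among genes with detection in 25% or more of either group's cells. On this scale a cell at 0 weighs heavily, so a difference depends on detection and can exceed the change in mean TPM. The count by the log2 ratio of mean TPM (each mean plus 1 TPM) is therefore given beside each. The 3 comparisons that involve Tregs share the Ins Tregs, and the other comparisons share cells of the same sort and class. With 1 sample per sort, none of these differences has a replicate check.

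Tregs and follicular helper cells were compared within the Ins sort. Of 42 genes compared, 17 were higher by 1 log2 unit or more in Tregs and 2 were lower, Tmsb10 and Evl. Evl met the detection filter only through follicular helper cells, so its place among the lower genes carries no weight of its own. Over all 2688 genes compared, 17.9% were higher and 7.7% lower. The median difference of the 42 genes was 0.69, and that of all genes 0.06. Among genes averaging over 1000 TPM in either group, 7 of 15 members were higher and 1 lower. Of all 186 such genes, 33.9% were higher and 15.1% lower, with a median of 0.25 against 0.77 for the 15 members. Of all 42, the 6 genes with the largest size were Tmsb10 (-2.78), Lsp1 (2.28), Lcp1 (2.13), Cdc42 (2.08), Actg1 (2.01) and Actr3 (1.57). All 6 had the same direction in each of the 3 Ins blocks. Of the other genes past the threshold, Evl was lower by 1.44 log2 units in Tregs, and the rest were higher, from Pfn1 (1.01), Cfl1 (1.05) and Tln1 (talin, which links integrins to actin, 1.09) to Arpc2 (1.48). Capza2 (1.39) was the only one of the 17 whose sign differed between blocks. Actb (0.58), Tmsb4x (0.71), Coro1a (0.17), Rac2 (0.35) and Arhgdib (-0.33) lay within 1 log2 unit. Cross-linkers (3 of 4 higher) and Arp2/3 subunits (5 of 7 higher) had the largest shares past the threshold. Lsp1 shows how detection enters: it was detected in 91.3% of Tregs and 65.6% of follicular helper cells, and averaged 1028 TPM in Tregs and 733 TPM in follicular helper cells. On the ratio of mean TPM, none of the 42 was higher by 1 log2 unit and 2 were lower, Tmsb10 and Evl, and 27 were above 0. Without the 4 cells, 12 genes were higher and 3 lower, with a median of 0.42. Pfn1 (0.62), Cfl1 (0.70), Capzb (0.88), Arpc4 (0.98) and Tln1 (0.98) then no longer passed, Was (-1.07) joined the lower genes, Tmsb10 was at -2.93, Tmsb4x at 0.32, Actb at 0.35 and Coro1a at -0.06. In cells with 1500 to 3000 genes detected, 9 genes were higher and 4 lower in Tregs, with a median of 0.36, against 27.9% of all genes past the threshold in either direction. The 8 genes no longer higher in such cells included Arpc1b (0.97), Arpc2 (0.92), Arpc5 (0.95) and Myl12a (0.75), and Twf2 (-1.23) and Cotl1 (-1.14) were now lower. Without Ins block 1, 12 were higher and 5 lower, with a median of 0.40.

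Cluster 2 and follicular helper cells were compared within the HIP sort. Of 41 genes, 11 were higher in cluster 2 and 2 were lower, which were Tmsb10 and Evl. Here too, Evl met the detection filter only through follicular helper cells, so its direction carries no weight of its own. Over all 2570 genes compared, 17.2% were higher and 4.79% lower. The median difference was 0.63 for the 41 genes and 0.17 for all genes. Among genes averaging over 1000 TPM in either group, 4 of 15 members were higher and 1 lower. Of all 186 such genes, 30.6% were higher and 7.53% lower, with a median of 0.45 against 0.78 for the 15 members. The share of higher members was thus not above that of equally abundant genes. Tmsb10 differed by -3.30, with 468.4 TPM in cluster 2 and 2115 TPM in follicular helper cells, and its block means of log2(TPM + 1) were 6.88 and 7.37 in cluster 2 against 10.35 and 10.43 in follicular helper cells. Capzb (1.89), Flna (filamin A, 1.88), Lcp1 (1.82), Arpc5 (1.72) and Actn4 (1.70) followed, and Arpc3 (1.65), Lsp1 (1.64), Actr3 (1.46), Arpc2 (1.32), Actg1 (1.29) and Capza2 (1.06) also passed. Evl was at -1.49 on the same scale. All 4 cross-linkers compared were higher. Rac2 (0.01), Arhgdib (0.19) and Coro1a (0.62) differed by less than 1 log2 unit, as did Actb (0.54), Pfn1 (0.68), Tmsb4x (0.95) and Cfl1 (0.99). With the ratio of mean TPM, 1 gene was higher (Actn4) and 2 were lower. Without the 4 low cells, 10 genes were higher and 2 lower, since Capza2 (0.98) no longer passed, and Tmsb10 was at -3.49. In cells with 1500 to 3000 genes detected, 12 were higher and 3 lower, and the median was 0.37.

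Dividing cells had more genes detected than Tregs (median 3610 against 2017 in the Ins sort), and most actin genes were detected in more of them. Of 41 genes, 22 were higher in dividing cells and 0 were lower, against 62.2% higher and 1.3% lower among all 5301 genes compared. The median difference of the 41 genes, 1.04, lay below that of all genes, 1.31. The largest were Actn4 (3.00, detected in 74.3% of dividing cells and 30.4% of Tregs), Twf2 (2.74), Cotl1 (2.66), Capza2 (2.54), Was (2.47) and Capza1 (2.44). Going by mean TPM, 0 were higher and 1 was lower (Dock8), and 15 of 41 were above 0. Tmsb10 (2.27) averaged 966 TPM in dividing cells and 560 TPM in Tregs. Of the membrane linkers, Msn (1.90), Ezr (1.87) and Fyb (1.85) were higher in dividing cells, as were Rac1 (1.94) and Cdc42 (1.58) among the GTPases and Arhgdib (1.04). None of the 4 myosin II genes passed the threshold. Actg1 (0.68), Coro1a (0.57), Cfl1 (0.27) and Rac2 (0.18) differed by less, and Actb (0.09), Pfn1 (-0.03) and Tmsb4x (0.06) were close to even. Only 4 Ins dividing cells had 1500 to 3000 genes detected, and in such cells Actn4 and Twf2 were lower in dividing cells (-2.32 and -2.36). The part of gene number in these differences cannot be told apart from the class.

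Cluster 4 lay far below Tregs of the same sort. Of 40 genes, 0 were higher and 26 were lower, while 43.8% of all 3918 genes compared were higher and 15.2% lower, 59% together. The median difference was -1.69 for the 40 genes and 0.75 for all genes. Tmsb4x differed by -7.44, with 379 TPM in cluster 4 (median 83.0) and 5760.35 TPM in Tregs (median 5009), and was detected in 52.4% of cluster 4 cells and 100% of Tregs. Lcp1 (-5.99), Actg1 (-5.97), Coro1a (-5.88) and Lsp1 (-4.41) followed, and Cotl1, also among the 6 largest, was listed at 0 in each cluster 4 cell. Rac2 (-4.35), Pfn1 (-3.69), Arhgdib (-3.40), Cfl1 (-2.54) and Actb (-2.49) were lower too. Tmsb10 had a difference of 0.02 on this scale, being detected in 90.5% of cluster 4 cells and 77.4% of Tregs, but its mean was 240.2 TPM in cluster 4 and 560 TPM in Tregs. On mean TPM, 35 of the 40 were lower by 1 log2 unit and none lay above 0. Antibody-secreting cell markers (7 of 8 in the table, none at 0 in all cells of cluster 4) summed to between 40125 and 330254 TPM in cluster 4, and to between 0 and 1874 TPM in Tregs. Since TPM sums to a fixed total, a share taken by such transcripts lowers the shares of all others, and its part in these differences was not tested.

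HIP and Ins cells were compared within 3 classes, with shares of actin genes past the threshold near or below those of all genes. In follicular helper cells, 1 of 41 genes was higher in HIP and 4 were lower, against 3.85% and 7.83% of all 2413 genes compared. The median difference was -0.11 for the 41 genes and -0.08 for all genes. Arpc5 had a difference of -1.53 (365 TPM in HIP cells, 675 TPM in Ins cells). Was (-1.21, 46.1 TPM in HIP and 89.6 TPM in Ins) and Rac1 (-1.03, 107 TPM in HIP and 210.2 TPM in Ins) were lower in both HIP blocks than in each of the 3 Ins blocks. Coro1a (-1.16) had 2937 TPM with detection in 88.3% of cells in HIP, against 3211 TPM with detection in 98.4% in Ins. Arpc1b was higher by 1.05 (1844 TPM in HIP cells, 1506 TPM in Ins cells), and Capzb, the sixth by size, differed by -0.93. Actb (-0.14), Actg1 (-0.17), Pfn1 (-0.11), Tmsb4x (0.20), Tmsb10 (0.58), Cfl1 (-0.21), Arhgdib (-0.11) and Rac2 (0.23) had overlapping blocks. By the ratio of mean TPM, 0 genes passed the threshold in either direction. Without HIP block 1, 4 were higher and 3 lower, with a median of 0.13, and without HIP block 2, 1 was higher and 9 lower, with a median of -0.43. Without Ins block 2, 4 were higher and 5 lower, the same split as in cells with 1500 to 3000 genes. Without the 4 cells, 0 were higher and 4 lower, with a median of -0.27. In that last case Rac1 (-0.92) and Arpc1b (0.94) no longer passed, and Capzb did (-1.06).

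In cluster 2, 6 of 40 genes were higher in HIP and 1 was lower, against 14.1% and 10.6% of all 2672 genes compared, with medians of 0.16 for the 40 genes and 0.11 for all genes. Arpc3 (1.80), Actr3 (1.75), Actn4 (1.59), Capzb (1.46), Myl6 (1.32) and Flna (1.16) were higher and Cdc42 (-1.59) was lower. Capzb averaged 1105 TPM in HIP and 781 TPM in Ins cells, and Actn4 265 TPM in HIP and 157 TPM in Ins cells, and both were higher in each HIP block than in each Ins block. Pfn1 (0.88, 5053 TPM in HIP cells and 3649 TPM in Ins cells) had the same order of blocks. Actb (-0.01), Actg1 (0.06), Tmsb4x (0.08), Tmsb10 (-0.07), Cfl1 (0.07), Coro1a (-0.06), Arhgdib (-0.12) and Rac2 (-0.11) were close to even. By the ratio of mean TPM, 0 genes passed. The count of 7 became 12 without HIP block 1 (11 higher, 1 lower), without Ins block 2 (11 higher, 1 lower) or without Ins block 3 (10 higher, 2 lower). Without HIP block 2, 4 genes were higher and 5 lower, and the median was -0.19.

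In the dividing class, with 9 HIP cells, 6 of 42 genes were higher in HIP and 1 was lower, against 25.2% and 13.6% of all 6053 genes compared. Arpc3 (2.38), Actn4 (2.05), Dock8 (1.75), Twf2 (1.74), Ezr (1.58) and Flna (1.28) were higher and Dock2 (-1.81) was lower. Tmsb10 (0.89), Arhgdib (0.59), Tmsb4x (0.39), Actg1 (0.17), Actb (0.13), Pfn1 (0.07), Coro1a (0.06), Cfl1 (-0.03) and Rac2 (-0.19) lay within 1 log2 unit. The counts by ratio of mean TPM were 1 higher and 1 lower. Without HIP block 2, which left 2 HIP cells, 11 genes were past the threshold and the differences of Dock2 and Ezr changed sign. The Treg factor Foxp3 was found in 0% (HIP) and 77.1% (Ins) of dividing cells, 0% (HIP) and 16% (Ins) of cluster 2, and 1.80% (HIP) and 13.1% (Ins) of follicular helper cells. The summed level of 13 dissociation stress genes also differed between the sorts. In dividing cells its mean was lower in HIP (491 TPM) than in Ins (900 TPM). In the other classes compared it was higher in HIP. It averaged 4606 TPM in HIP (0 to 27234) and 1090.0 TPM in Ins (0 to 7620.0) follicular helper cells, and 3840.2 TPM in HIP (0 to 20703) and 1171 TPM in Ins (0 to 4953) cells of cluster 2. Of the 13 genes, 4 were at 0 in all Ins follicular helper cells and none in all HIP ones. The part of either in the differences between sorts was not tested.

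**Figure D4:**
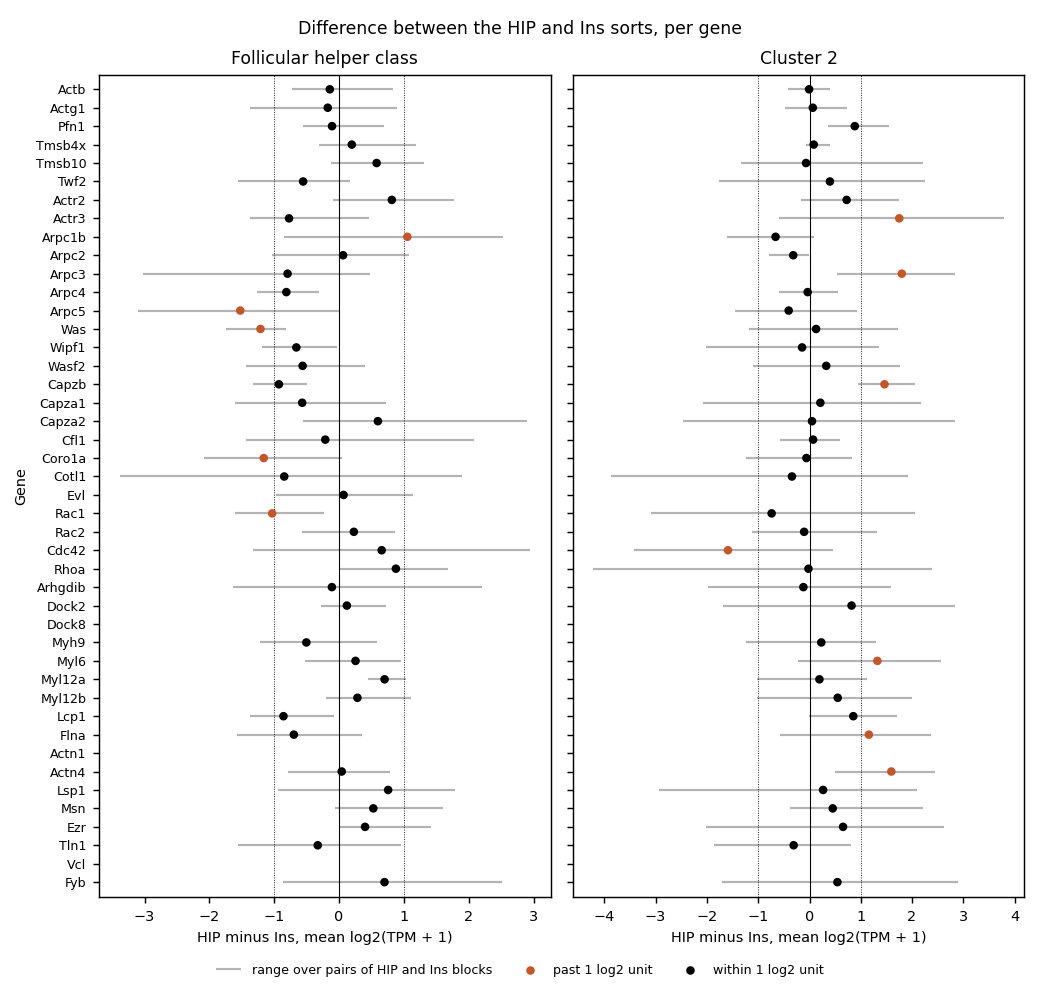
Difference of mean log2(TPM + 1), HIP minus Ins, for each gene compared in the follicular helper class (left) and cluster 2 (right), with grey lines for the range over pairs of HIP and Ins blocks and dotted lines at 1 log2 unit. In follicular helper cells 5 genes pass the lines and in cluster 2 it is 7, and most grey lines cross 0. Genes without a point were below the detection filter.

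Other genes of the same machinery, 130 in 7 lists of which 116 were in the table, were read in the same way. Within the Ins sort, 18 of the 58 compared were higher in Tregs than in follicular helper cells and 3 lower, against 17.9% and 7.7% of all genes compared. Without the 4 low cells, 17 of 59 were higher and 3 lower. Capg (a filament capper) averaged 1468 TPM in Tregs and 321 TPM in follicular helper cells, and Wdr1, which helps cofilin, 818 TPM in Tregs and 344 TPM in follicular helper cells. Tpm4 (a tropomyosin) and Myo1f (a class I myosin) were higher by 2.59 and 2.52 log2 units. Capg also led in cluster 2, with 720.2 TPM against 166 TPM in follicular helper cells of the HIP sort, where Skap1 (a partner of Fyb) differed by -2.44. There 12 of 55 were higher and 2 lower, with or without the 4 low cells, against 17.2% and 4.79% of all genes. Capg is also on the list of Treg markers used here. In dividing cells 46 of 76 were higher than in Tregs, against 62.2% of all genes, led by Tagln2 (transgelin 2), with 998 TPM in dividing cells and 353 TPM in Tregs. In cluster 4, 10 of 63 were higher than in Tregs and 32 lower, against 43.8% and 15.2% of all genes, with Capg (-6.00) and Wdr1 (-4.26) among the lower ones. Between HIP and Ins cells, 3 of 47 were higher and 6 lower in follicular helper cells, against 3.85% and 7.83% of all genes, or 3 and 5 of 50 without the 4 low cells. In cluster 2, 8 of 56 were higher and 5 lower, against 14.1% and 10.6% of all genes. Capg (-1.18) and Pak2 (1.15) had the largest differences in follicular helper cells, and Lasp1 (1.80) and Abi1 (-1.65) in cluster 2.

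Co-variation between cells was weak in most groups, and the abundant genes of Ins dividing cells had the highest median. Spearman correlations were computed over the cells of 1 class and sort, which share their sort, blocks and sequencing, among genes detected in at least 50% of them. The median over gene pairs was 0.10 in Ins dividing cells (35 cells), 0.0939 in Ins Tregs (115), 0.0645 in HIP (61) and 0.0740 in Ins (25) cells of cluster 2, and 0.114 in HIP (111) and 0.153 in Ins (61) follicular helper cells. Over all genes with the same detection it lay between 0.0113 and 0.0337. Without the 4 cells described above, the follicular helper medians were 0.0819 in HIP and 0.0937 in Ins. Among members over 1000 TPM the median was 0.327 in Ins dividing cells and between 0.0892 and 0.229 in the other groups, while all genes over 1000 TPM had medians from 0.00655 to 0.0801. For follicular helper cells these member medians were 0.156 in HIP and 0.229 in Ins, or 0.113 and 0.153 without the 4 low cells.

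The pair of Actb and Pfn1 was among the 5 highest in 5 of the 6 groups. Its correlation was 0.641 in Ins dividing cells, 0.481 in Ins Tregs, 0.522 in HIP and 0.402 in Ins cells of cluster 2, and 0.399 in HIP and 0.496 in Ins follicular helper cells (0.367 and 0.443 without the 4 low cells). Given the number of genes detected, these values lay between 0.393 and 0.638. Actb and Actg1 had 0.612 in Ins dividing cells and 0.481 in Ins Tregs, but 0.165 in HIP and 0.0177 in Ins cells of cluster 2. Actb and Cfl1 had 0.575 in Ins dividing cells, 0.357 in Ins Tregs, and 0.461 in HIP but 0.0985 in Ins cells of cluster 2. The same pair had 0.375 in HIP and 0.361 in Ins follicular helper cells (0.343 and 0.295 without the 4 low cells). In dividing cells the highest pair was Actb with Arhgdib, at 0.713, followed by Tmsb4x with Coro1a, at 0.658. In HIP follicular helper cells it was Pfn1 with Tmsb10, at 0.406, in Ins follicular helper cells Arpc2 with Cdc42, at 0.527, and in Ins cells of cluster 2 Arpc2 with Cfl1, at 0.577. Without the 4 low cells, Pfn1 with Tmsb10 in HIP was at 0.374 and Arpc2 with Cdc42 in Ins at 0.490. Tmsb4x and Arhgdib had 0.626 in Ins dividing cells, 0.428 in Ins Tregs and 0.531 in Ins cells of cluster 2. Their values were lower in HIP cells of cluster 2 (0.272) and in HIP (0.182) and Ins (0.253) follicular helper cells.

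The subunits of the Arp2/3 complex were weakly correlated with each other. Their median correlation with each other was 0.0289 in Ins dividing cells, 0.0551 in Ins Tregs and 0.0980 in HIP follicular helper cells, below the 0.0854, 0.0920 and 0.112 of the same subunits with the other members. It was 0.0642 in HIP and 0.0504 in Ins cells of cluster 2 and 0.151 in Ins follicular helper cells, above the 0.0456, 0.0456 and 0.149 with the other members. Without the 4 low cells, the order within the follicular helper class stayed, at 0.0776 against 0.0866 in HIP and 0.108 against 0.0933 in Ins. In Ins dividing cells Actr3 and Arpc3 had the lowest value of any pair, -0.527, and Capza1 and Cotl1 followed at -0.4999. The lowest pairs elsewhere were Capza1 with Dock2 in Ins Tregs (-0.219), Rac2 with Fyb in HIP (-0.331) and Rac1 with Msn in Ins (-0.440) cells of cluster 2, and Myh9 with Myl12a in HIP (-0.207) and Coro1a with Msn in Ins (-0.252) follicular helper cells (-0.217 and -0.356 without the 4 low cells). At such levels a weak value between sparse genes is no finding.

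**Figure D5:**
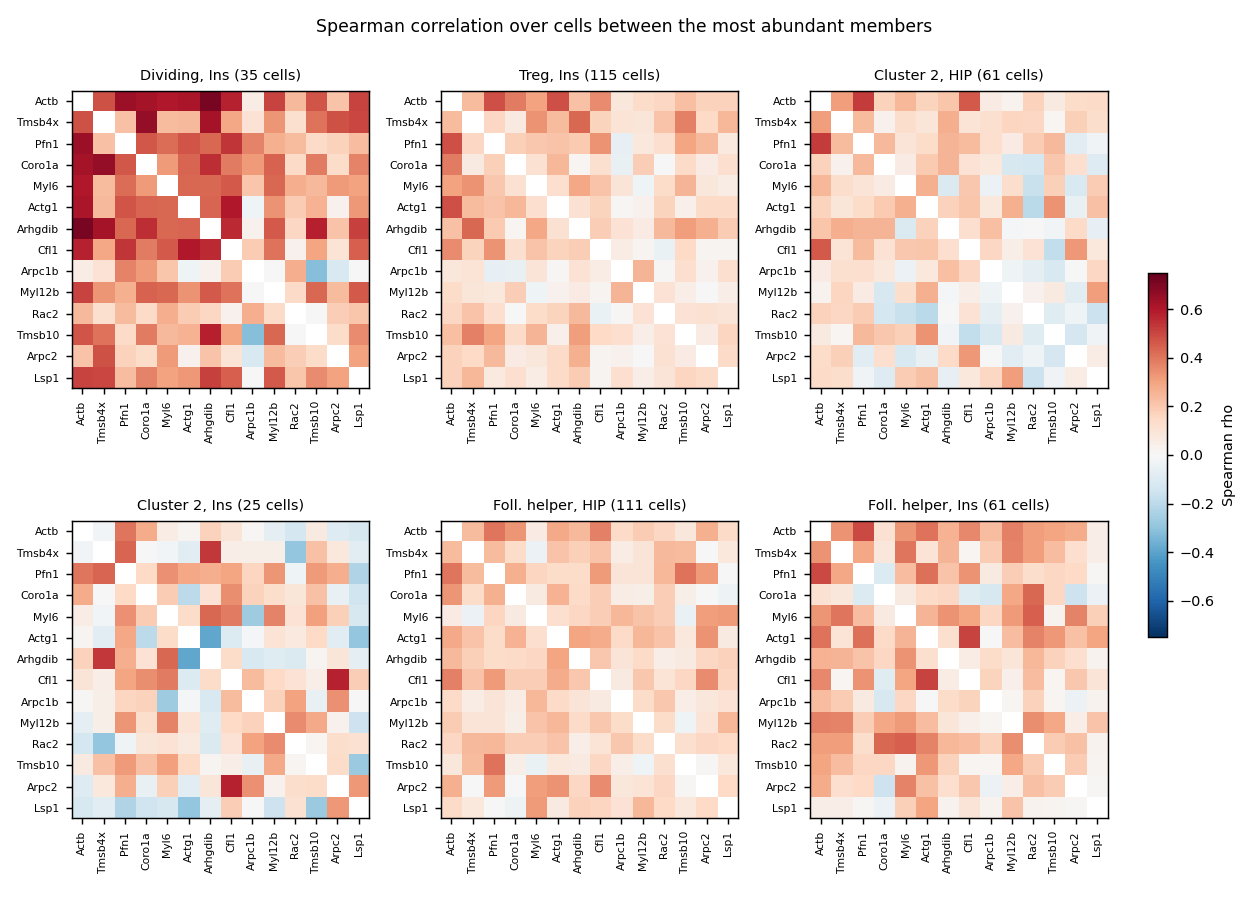
Spearman correlation over cells (colour, red positive and blue negative) between the members averaging over 1000 TPM in T cells, in the 6 groups with at least 25 cells. Ins dividing cells are the reddest, with a median of 0.327 among abundant members, and the Actb and Pfn1 square is red in each panel, from 0.399 to 0.641.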

How the data were processed

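Islets were isolated by collagenase digestion and dissociated, and tetramer-binding CD4 T cells were sorted singly and sequenced by SMART-Seq2 on a NextSeq 500, per the labels' protocols. The authors deposited natural log values, ln(TPM/10 + 1), and TPM = 10*(exp(value) - 1) summed to 1000000 in each of the 441 cells. The submitters' processing notes name RSEM 1.2.8, TopHat, Bowtie and the mm10 genome, without roles. The authors' deposited annotation gave sort, class, cluster and the number of genes detected per cell. How clusters were made is not stated in those sources. No doublet caller was run, and depth is unknown from TPM.

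Each sort was 1 sample, so differences of mean log2(TPM + 1) were described without a test, at 1 log2 unit, for genes detected at 1 TPM in at least 25% of either group. The arithmetic was checked by planting a 4-fold change in the real values of well-detected genes, in 1 part of a random split of follicular helper cells. Its outcome follows from the formula, so it says nothing about noise or false calls. Sparsely detected genes were not part of that check. Blocks of 96 consecutive cell numbers (2 HIP, 3 Ins) were used as a description, and the labels do not say what they are. Shares are given with 95% Clopper-Pearson intervals (exact), and a value of 0 with a limit of 3 cells over the number of cells. Named genes were Actb, Actg1, Tmsb4x, Tmsb10, Cfl1, Pfn1, Coro1a, Arhgdib and Rac2, the 6 members with the largest difference per comparison, the 5 highest and 2 lowest correlated pairs per group and up to 4 other pathway genes per comparison. Members and lists were chosen with earlier results of these data known. Alternatives were other pseudocounts, no detection filter, cells with 1500 to 3000 genes, equal weight per block, TPM without Rn45s, the ratio of mean TPM and leaving out each block. Leaving out 4 follicular helper cells was added after seeing the data. Shared sequence was the share of 50-base windows of a gene's GRCm38 transcripts found in other genes. Python 3.11.15, numpy 2.4.6, pandas 2.3.3, scipy 1.17.1 and matplotlib 3.10.9 were used. One of the marker genes is not reported here.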

Additional observations from a re-analysis of the deposited data

Results flagged for a closer look

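Capzb, the beta subunit of capping protein, differed between HIP and Ins cells in opposite directions in 2 classes. It was picked from the members by a rule that asked for fully separated blocks in opposite directions in these classes. The order of the blocks is therefore the rule itself and lends no support. The share of all genes that meet this rule was not computed. In follicular helper cells the difference of mean log2(TPM + 1) was -0.93 (729 TPM in HIP cells, 895 TPM in Ins cells), with each HIP block below each Ins block. In cluster 2 it was 1.46 (1105 TPM in HIP cells, 781 TPM in Ins cells), with each HIP block above each Ins block. The value in follicular helper cells did not reach the threshold of 1 log2 unit (-1.06 without the 4 low cells), and by the ratio of mean TPM neither did (-0.30 and 0.50). The difference between the classes was not tested, since each sort is 1 sample. Detection moved in the same directions, at 70.3% of HIP and 78.7% of Ins follicular helper cells, and 88.5% of HIP and 80% of Ins cells of cluster 2.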

How the results depend on the processing

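No paired analysis was possible because the results come from no test and the cell numbers in the labels do not pair HIP and Ins cells. With a pseudocount of 0.1 TPM, the genes past 1 log2 unit between HIP and Ins numbered 12 in follicular helper cells (main count 5) and 11 in cluster 2 (main 7). With 10 TPM they numbered 1 in follicular helper cells and 4 in dividing cells (main 7), 8 for Tregs against follicular helper cells (main 19) and 9 for dividing cells against Tregs (main 22). By the ratio of mean TPM the counts between HIP and Ins were 0 in follicular helper cells, 0 in cluster 2 and 2 in dividing cells, and 2 for Tregs, 3 for cluster 2 (main 13) and 1 for dividing cells. In cells with 1500 to 3000 genes detected, 9 genes passed in follicular helper cells, and no HIP dividing cell was left. The count for cluster 4 against Tregs stayed between 25 and 35 under all alternatives run (main 26).

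Leaving out each block gave 4 to 10 genes between HIP and Ins in follicular helper cells, 8 to 12 in cluster 2 and 6 to 11 in dividing cells. It gave 17 to 24 for Tregs and 13 to 17 for cluster 2 against follicular helper cells, and 17 to 23 for dividing cells and 26 to 30 for cluster 4 against Tregs. Without HIP block 2, the HIP minus Ins differences of Dock2 and Ezr in dividing cells turned to 2.16 and -2.04, against -2.94 and 2.61 without HIP block 1. For dividing cells against Tregs, Actn4 and Twf2 turned to -2.32 and -2.36 in cells with 1500 to 3000 genes, and by the ratio of means Twf2 was -0.28 and Capza2 -0.14.

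The summed share in HIP cells of cluster 2 (main 5.78%) was 5.56% as a median, 5.89% without Rn45s and 5.92% in cells with 1500 to 3000 genes. The median correlation was 0.0684 in Ins Tregs with genes detected in 25% of cells. In HIP cells of cluster 2 it was 0.117 by Pearson and 0.0397 in cells with 1500 to 3000 genes. In HIP follicular helper cells it was 0.203 by Pearson, 0.0687 in cells with 1500 to 3000 genes and, without the 4 cells (an alternative chosen after seeing the data), 0.0819. Of the 1080 values for named genes under alternatives, 998 moved by less than 1 log2 unit, 76 moved by more and 6 that had passed the threshold changed sign. Another 70 values of genes below the threshold also changed sign, such as Coro1a for Tregs and Rac2 (-0.18) for cluster 2 against follicular helper cells without the 4 cells. The cause was not tested. Depth is unknown and genes under 100 TPM were often undetected, so their differences rest mainly on detection.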
